A study of Mus musculus with 6 samples.

Results

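Transcripts of 8 genes that serve the making and release of milk fat were followed in the mammary glands of virgin mice with and without caveolin-3: Btn1a1, Xdh, Plin2, Muc1, Muc15, Mfge8, Olah and Cel. They were chosen by name as milk fat globule and milk lipid genes, out of 18193 genes named on the array. Earlier results of these data were known at that choice. Shares of all genes given beside counts of the 8 therefore describe and do not test. A gene with several probe sets is represented by its brightest one on average, counting only sets annotated to it alone. All 8 were measured. RNA came from whole glands of 4-month-old virgin females of the FVB/N background. The wild-type group (WT) had 3 arrays and the Cav-3 knockout group (Cav-3KO), which lacks caveolin-3, the caveola coat protein of muscle cells, also had 3. Each array read 1 gland sample, and the labels do not say whether each sample came from a different mouse, so the p-values measure only the spread between these samples, which may be technical.

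Milk fat leaves the alveolar cell as a lipid droplet wrapped in the cell's own apical membrane. Plin2 coats the droplet inside the cell, Btn1a1 spans the apical membrane, and Xdh, besides its part in purine breakdown, binds the cytoplasmic tail of Btn1a1; these proteins are held to link droplet and membrane. Muc1 and Muc15 are heavily glycosylated membrane proteins of the globule surface, and Mfge8 (lactadherin) is a secreted protein that binds phosphatidylserine and integrins. Olah is the thioesterase that makes fatty acid synthase release medium-chain fatty acids, which mark milk fat, and Cel is a bile salt-dependent lipase secreted into milk and by the pancreas. Several of these genes are also active outside the epithelium, Plin2 in fat cells among others.

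The 6 arrays had medians between 5.77 and 5.80 on the log2 scale and correlated at 0.977 to 0.995 over all probe sets. Luminal epithelial markers such as Epcam and Krt8 were present on each array, as the tissue label asks. Means of 15 measured luminal markers lay at 8.68 to 9.18 on the wild-type arrays and at 9.67 to 9.92 on the knockout arrays. Markers of fat and muscle varied too: the mean of 8 white adipocyte markers was 11.45 to 11.84 with caveolin-3 and 10.87 to 11.24 without it, and that of 10 skeletal muscle markers 5.58 to 9.24 and 5.04 to 7.29. For a level near background, 20 probe sets of Y-linked genes, whose targets female tissue lacks, had means of 2.04 to 6.16 with a median of 2.88. The top of this range lies above the array medians, so a value within it need not be near background.

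All 8 genes had a higher mean in knockout (48.4% of all genes did), and 4 of them, Olah, Cel, Muc15 and Muc1, rose past an adjusted p of 0.05 in limma, adjusted over all 45037 probe sets tested. Among all genes 7.65% were higher by that rule and 8.51% lower. None of the 8 was lower (0 also at an unadjusted p under 0.05 in limma). The median log2 difference was 1.41, against −0.0091 over all genes. The 4 that rose are the lipid enzymes and the mucins. Btn1a1, Xdh and Plin2, which are held to form the droplet-to-membrane link, and Mfge8 did not pass. The wild-type means of the 4 that did not pass ranked at percentiles 92.3 to 99.7 of all genes. Those of the 4 that rose ranked at 20.0 to 88.9. Whether passing goes with function or with wild-type level was not tested. A difference is given in log2 units as knockout less wild type, so 1 is a 2-fold signal; in RNA from whole glands, more cells of a type and more RNA per cell cannot be told apart.

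Promoter sequences were at hand in a RefSeq table (GRCm38.p6) for 5 of the 8 genes, and those of the 3 that rose, Olah, Cel and Muc1, are printed to show what letters lie around their start sites. Each runs 5′ to 3′ on the gene's own strand, with 250 bases before the start and 50 from it on, at chr2:3366520-3366819 on the minus strand for Olah, chr2:28563354-28563653 on the minus strand for Cel and chr3:89228806-89229105 on the plus strand for Muc1. Capitals mark matches to any of 7 motifs searched on both strands.
Olah: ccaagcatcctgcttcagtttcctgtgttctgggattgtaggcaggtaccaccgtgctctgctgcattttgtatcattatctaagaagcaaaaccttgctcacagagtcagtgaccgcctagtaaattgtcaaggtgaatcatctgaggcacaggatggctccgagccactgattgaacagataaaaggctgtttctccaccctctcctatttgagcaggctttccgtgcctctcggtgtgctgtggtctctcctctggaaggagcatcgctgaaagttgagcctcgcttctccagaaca
Cel: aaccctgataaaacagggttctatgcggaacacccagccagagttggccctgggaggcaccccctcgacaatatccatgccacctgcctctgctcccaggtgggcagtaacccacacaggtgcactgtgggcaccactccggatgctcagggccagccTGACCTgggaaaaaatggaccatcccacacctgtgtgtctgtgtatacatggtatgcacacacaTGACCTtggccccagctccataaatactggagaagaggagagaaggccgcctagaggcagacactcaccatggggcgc
Muc1: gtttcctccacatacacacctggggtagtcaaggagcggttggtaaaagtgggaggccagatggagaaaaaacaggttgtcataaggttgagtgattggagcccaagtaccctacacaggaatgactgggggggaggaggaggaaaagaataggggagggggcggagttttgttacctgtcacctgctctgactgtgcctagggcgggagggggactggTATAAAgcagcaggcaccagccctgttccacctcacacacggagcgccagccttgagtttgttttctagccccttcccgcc

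The Olah window held no match to any of the 7 motifs. In Cel, the letters TGACCT, the reverse complement of the nuclear receptor core AGGTCA, stood 23 to 28 and 87 to 92 bases before the start, and 16.3% of 32851 promoters hold that core. Muc1 had TATAAA 26 to 31 bases before its start, which 13.6% of promoters hold anywhere in the window. Among the genes that did not pass, Plin2 held AGGTCA once and Mfge8 the ETS core AGGAAG once, the latter found in 35.4% of promoters. No window of the 5 held the STAT motif TTCNNNGAA (8.30% of promoters), the C/EBP motif TTGCNNAA (10.8%), the NF1 core TTGGCA (14.1%) or the SREBP motif TCACNCCA (4.36%), which were searched because factors of these families act on milk or lipid genes. The motifs do not overlap one another in these windows, and the search says nothing of sites elsewhere in the genes.

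Olah showed the greatest difference. Its log2 values were 3.66, 5.89 and 3.29 on wild-type arrays 1 to 3, against 7.72, 10.34 and 9.08 on knockout arrays 1 to 3. Every knockout array lay above every wild-type array, and wild type 2 was the nearest to them. The rise of 4.77 ± 0.80 (SE, n = 3 per group) is 27.3-fold, with a 95% interval of 2.92 to 6.61 and an adjusted p of 0.0103 by limma. The wild-type values fall inside the range of the Y-linked probe sets, though 5.89 on wild type 2 lies near its top and above the array medians. At dim values such as those on wild type 1 and 3 the array compresses differences. A second probe set of the gene read 4.27, 4.84 and 3.53 in wild type against 5.90, 8.87 and 7.46, and rose by 3.20 ± 0.67 (adjusted p = 0.0220 by limma). The array maker marks the first set as possibly shared between transcripts, and with the mean of both sets the difference was 3.98.

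Cel, the milk lipase, read 6.31, 7.47 and 6.48 on wild-type arrays 1 to 3, against 8.76, 12.28 and 9.19 on knockout arrays 1 to 3. Its groups did not overlap, but knockout 2 stood 3.31 above the mean of the other knockout arrays, about as far as the groups stood apart. The rise was 3.32 ± 0.84 (SE), 10.01-fold, with an interval of 1.38 to 5.26 and an adjusted p of 0.0402 by limma. This call was lost without wild type 1, 2 or 3 (adjusted p = 0.114, 0.0686 and 0.122) and without knockout 3 (0.0726), while it was firmer without knockout 2 (difference 2.22, adjusted p = 0.00857). Cel is also a digestive enzyme of the pancreas. Of 5 measured pancreatic markers 0 were higher (0 also at an unadjusted p under 0.05 in limma) and 1 was lower. That 1 was Cela1, an elastase, which read 7.97, 9.07 and 8.65 in wild type against 7.77, 6.80 and 7.51 (difference −1.21 ± 0.32, adjusted p = 0.0471 by limma). Its call was lost without wild type 2 or 3 and without knockout 2 or 3. The same held with array weights, arrays centred on their medians, the robust prior, the replicate block or the mean of probe sets. Prss2, a trypsinogen, differed by −0.21 ± 0.08 (adjusted p = 0.143) and Ctrb1, a chymotrypsinogen within the range of the Y-linked sets, by 0.06 ± 0.09. Cpa1, a pancreatic carboxypeptidase, lay between 3.94 and 4.35 on all 6 arrays, and Clps, the colipase, between 4.83 and 5.11, both within the range of the Y-linked sets.

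Muc15 had the steadiest rise. Its wild-type values were 10.09, 10.28 and 9.31, and its knockout values 12.44, 12.74 and 12.62. The knockout arrays lay close together, with an SD of 0.15 against 0.51 in wild type. The rise was 2.71 ± 0.23 (SE), 6.53-fold, with an interval of 2.17 to 3.25 and an adjusted p of 0.00117 by limma. It kept this call without any 1 array, at differences of 2.42 to 2.90 and adjusted p between 0.00261 and 0.00856.

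Muc1, the other globule mucin, read 7.23, 7.21 and 6.52 in wild type and 8.39, 9.91 and 8.71 in knockout. Here too the groups were apart, and knockout 2 was the highest array. The rise of 2.02 ± 0.38 (SE) is 4.05-fold (interval 1.14 to 2.89, adjusted p = 0.0150 by limma). Without wild type 3 the adjusted p was 0.0554.

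**Figure D1:**
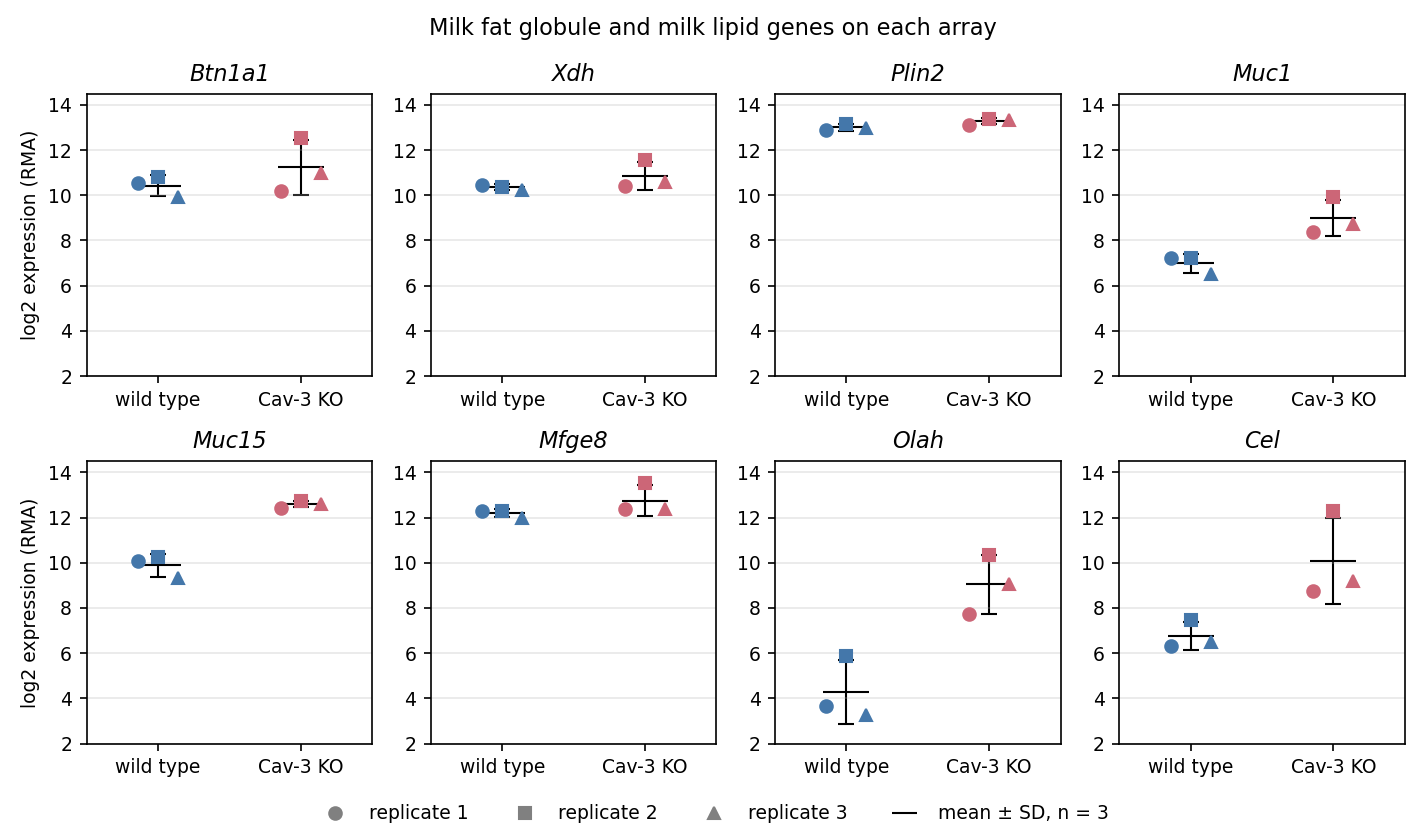
Log2 expression (RMA values, vertical axis, same scale in each panel) of the 8 genes in the 3 wild-type and 3 Cav-3 knockout arrays; points are arrays, shaped by replicate number, and bars are mean ± SD (n = 3). Olah, Cel, Muc15, Muc1 and Mfge8 have no overlap between groups, and knockout 2 is the highest array in each panel.

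None of the 3 genes of the droplet-to-membrane link passed the threshold. Btn1a1 read 10.55, 10.80 and 9.92 in wild type and 10.18, 12.54 and 10.98 in knockout. Knockout 1 lay below wild type 1 and 2, so the groups overlapped, and the difference of 0.81 ± 0.54 (SE, interval −0.43 to 2.05) had an adjusted p of 0.384 by limma. Without knockout 2 the difference was 0.15. Of its other probe sets, one read 3.66, 3.66 and 3.64 against 3.79, 6.29 and 4.29 (difference 1.14 ± 0.55, adjusted p = 0.229 by limma). The other stayed between 2.31 and 2.56 on all arrays but knockout 2, where it was 3.59. Apart from 6.29 on knockout 2, all values of both sets lay within the range of the Y-linked sets.

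Xdh gave 10.47, 10.38 and 10.22 in wild type and 10.39, 11.56 and 10.58 in knockout. Knockout 1 fell among the wild-type arrays. Its difference was 0.49 ± 0.28 (SE, interval −0.15 to 1.12, adjusted p = 0.305 by limma), and 0.13 without knockout 2. Plin2 read 12.87, 13.17 and 12.96 in wild type and 13.11, 13.39 and 13.33 in knockout. Wild type 2 exceeded knockout 1, and the difference of 0.27 ± 0.12 (SE, interval 0.0066 to 0.54) did not pass after adjustment (unadjusted p = 0.0458, adjusted p = 0.171 by limma).

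Mfge8 read 12.27, 12.30 and 11.99 in wild type and 12.36, 13.53 and 12.36 in knockout. The groups did not overlap, yet knockout 1 and 3, both at 12.36, were next to wild type 2. Its difference was 0.57 ± 0.30 (SE, interval −0.13 to 1.26, adjusted p = 0.271 by limma), and 0.17 without knockout 2. In all, 5 of the 8 genes had every knockout array above every wild-type array, beside 18.5% of all genes, and 0 had the reverse, beside 19.8%. Each of these 5 gave p = 0.1 in a two-sided exact permutation test over the arrays, the smallest that 10 splits of 3 against 3 allow.

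**Figure D2:**
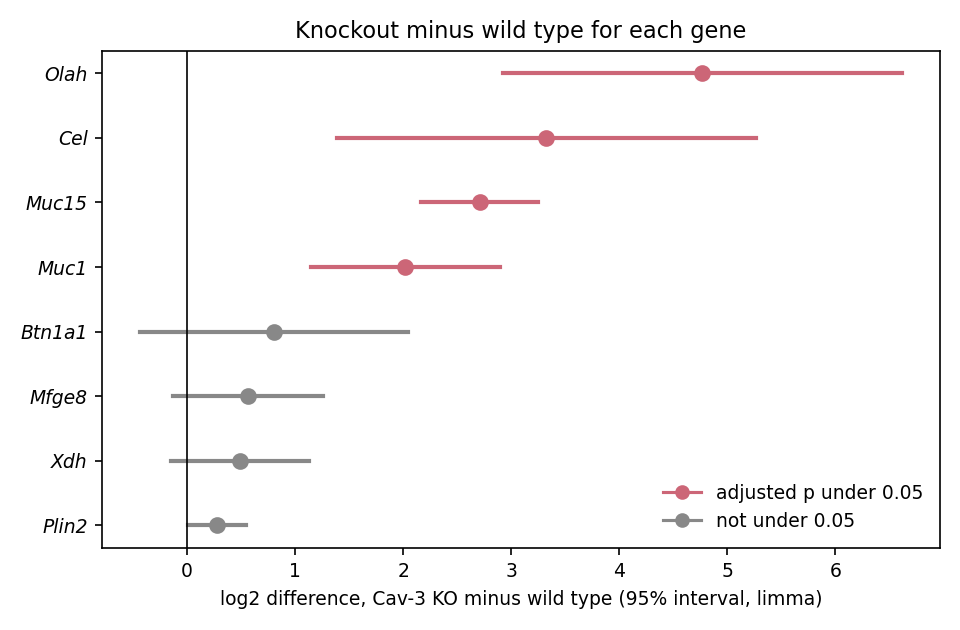
Log2 difference, Cav-3 knockout minus wild type, of the 8 genes (horizontal axis), with 95% intervals from limma (3 arrays per group) as lines. Olah, Cel, Muc15 and Muc1, in red, had an adjusted p under 0.05; the intervals of Btn1a1, Mfge8 and Xdh cross 0.

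In order of their differences the genes ran Olah, Cel, Muc15, Muc1, Btn1a1, Mfge8, Xdh and Plin2. The widest step relative to its error was from Muc1 to Btn1a1: the rise of Muc1 exceeded the difference of Btn1a1 by 1.21 ± 0.26 (SE; exact permutation p = 0.1, the smallest possible). Olah exceeded Cel by 1.45 ± 0.71 (exact permutation p = 0.2), a step that carries the limit given above for the dim wild-type values of Olah. The other 5 neighbouring steps were under 2 SE, with exact permutation p of 0.3 to 0.8, before any adjustment for the 7 steps. The order was taken from these same differences, so every step is positive by construction. The SE and p take no account of that, and the steps describe the order only.

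The knockout arrays were unlike one another. Knockout 2 had the highest value of all 6 arrays for 8 of the 8 genes, beside 18.4% of all genes, and knockout 1 had the lowest knockout value for 7. Knockout 2 exceeded the mean of the other knockout arrays by 3.31 for Cel, 1.96 for Btn1a1, 1.94 for Olah, 1.36 for Muc1, 1.17 for Mfge8 and 1.08 for Xdh, but by only 0.21 for Muc15 and 0.17 for Plin2. Without knockout 2 the 4 calls remained, at 4.12 for Olah, 2.64 for Muc15, 2.22 for Cel and 1.57 for Muc1, and the median over the 8 genes was 0.89. In wild type, array 2 was the highest for 6 of the 8 genes and array 3 the lowest for 6. For these counts, and for that of knockout 1, the share over all genes was not taken. Whether they are particular to the 8 genes was therefore not tested.

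Milk protein genes were also highest on knockout 2. The mean of 8 milk protein genes, caseins and whey proteins among them, stood at 8.47, 10.32 and 8.50 with caveolin-3 (arrays 1 to 3) and at 10.55, 12.82 and 11.23 without it, and knockout 2 was the highest array for all 8. The means of luminal and basal markers did not follow it. In knockout 1 to 3 the luminal mean was 9.92, 9.67 and 9.75 and the mean of 8 basal markers 9.65, 9.51 and 9.61. Knockout 2 thus had the lowest epithelial marker means of the knockout arrays and the highest milk protein mean. Single markers differed: knockout 2 was the highest array for 4 of 15 luminal and 0 of 8 basal markers, beside 18.4% of all genes. Of the luminal markers 9 of 15 were higher and 1 lower in knockout, with a median difference of 0.88, and 7 of 8 basal markers were higher and 0 lower (0 also at an unadjusted p under 0.05 in limma). Elf5, a luminal transcription factor of alveolar development, rose by 2.31 ± 0.27 (SE), 4.95-fold, while Esr1, the oestrogen receptor, fell by 0.55 ± 0.10. Both were picked from the 15 luminal markers after their values were seen. A shift between kinds of luminal cell was not tested. The part of the epithelial markers in the results above cannot be told apart from genotype, since their means do not overlap between groups; with the luminal mean as a covariate 0 of the 8 genes and 0 of all genes passed in limma (5 and 1514 at an unadjusted p under 0.05).

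**Figure D3:**
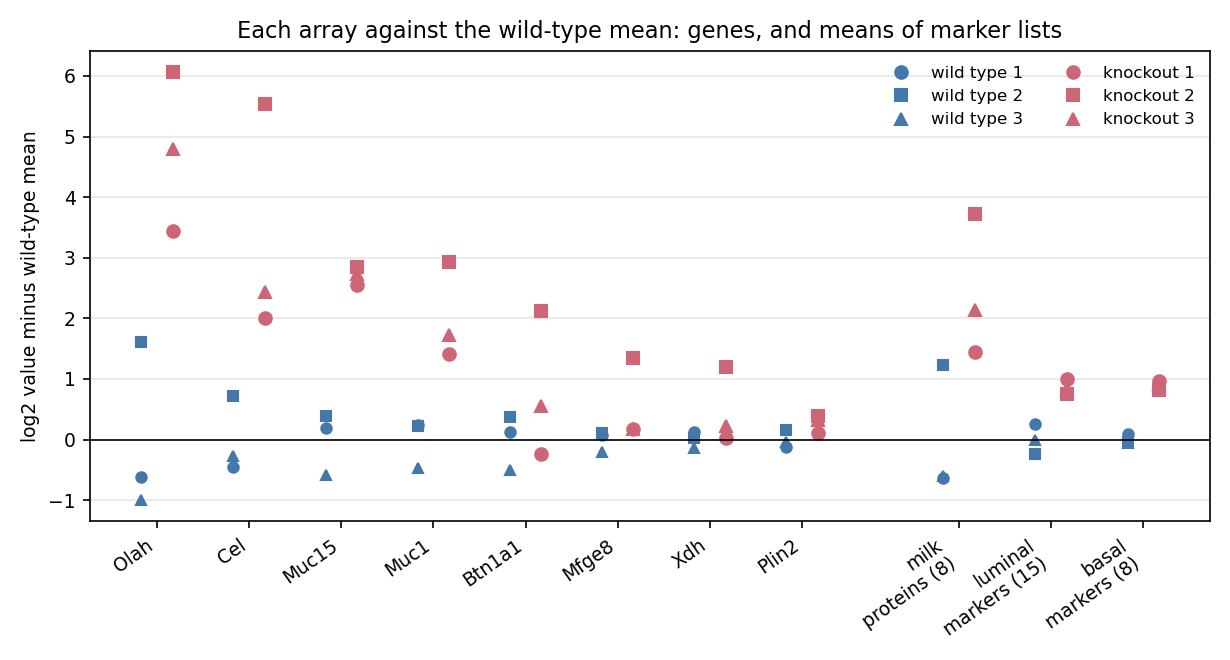
Log2 value of each array minus the wild-type mean (vertical axis) for the 8 genes and, at the right, for the means of 8 milk protein genes, 15 luminal and 8 basal markers; blue points are wild type, red are knockout, shaped by replicate number. Knockout 2 (square) is the highest for the genes and for the milk proteins but not for the luminal or basal means.

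The genes whose values over the 6 arrays were most like the mean of the 8, among 1556 other genes with an SD of at least 0.5, were B3glct, Bhlha15, Pde9a, Csn3 and Sftpd, with Pearson correlations of 0.991 to 0.994. The points share the 6 arrays and the 2 groups, so these values describe likeness only. Bhlha15, a transcription factor of secretory cells, read 5.36, 5.85 and 5.21 in wild type and 6.57, 8.62 and 7.07 in knockout. Csn3, kappa-casein, read 12.25, 12.53 and 12.01 against 12.83, 13.83 and 13.34. Each of the genes named as most like the mean of the 8 had knockout 2 as its highest array. So did that mean, and they were picked for likeness to it, so this follows from the choice.

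Among 10 genes for other proteins of the globule or of its release, 0 passed as higher and 2 as lower (2 and 5 at an unadjusted p under 0.05 in limma), with a median difference of 0.09. Cidec, a droplet protein of fat cells, fell by 0.68 ± 0.11 (SE, adjusted p = 0.00832 by limma) and Stom, stomatin, by 0.79 ± 0.16 (adjusted p = 0.0204). The call of Stom did not hold when wild type 1, wild type 3 or knockout 3 was left out (0.0521, 0.0597 and 0.0738), nor when probe sets marked as shared between transcripts were (0.721). Knockout 2 was the highest array for 5 of the 10: Folr1, Abcg2, Slc34a2, Rab18 and Fabp3, named after their values were seen. Folr1, a folate receptor, read 5.72, 6.08 and 5.56 against 6.56, 8.98 and 7.54 (adjusted p = 0.0515 by limma). Slc34a2, a phosphate transporter, read 6.97, 7.27 and 6.37 against 7.39, 11.17 and 7.84 (adjusted p = 0.202). Rab18, a small GTPase found on lipid droplets, read 11.28, 11.33 and 11.24 against 11.37, 12.48 and 11.60 (adjusted p = 0.224).

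Among relatives of the 8 genes, 2 further mucins rose. Of 9 measured mucin-type genes, Muc4 and Muc20 were higher and 0 were lower (0 also at an unadjusted p under 0.05 in limma), with a median of −0.08. Muc4, a transmembrane mucin of epithelia, read 3.66, 3.66 and 3.80 in wild type and 6.28, 6.33 and 7.15 in knockout, a rise of 2.88 ± 0.22 (SE, adjusted p = 0.00081 by limma) from wild-type values within the range of the Y-linked sets. Muc20 read 6.53, 6.76 and 6.27 against 7.59, 9.16 and 8.31, a rise of 1.83 ± 0.35 (adjusted p = 0.0158, with 0.0609 when wild type 3 was left out and 0.0591 when knockout 3 was). Endomucin, Emcn, a mucin of endothelium, did not pass (difference −0.22 ± 0.18). The secreted gel mucins Muc2, Muc5ac and Muc5b lay between 3.99 and 5.78 on all arrays, within the range of the Y-linked sets.

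Of the 3 measured relatives of Plin2, 1 was lower and 0 higher (2 lower and 0 higher at an unadjusted p under 0.05 in limma), with a median of −0.42. Plin5, the perilipin of oxidative tissues, read 9.41, 10.05 and 10.47 in wild type and 8.26, 8.07 and 7.99 in knockout, and fell by 1.87 ± 0.24 (SE, adjusted p = 0.00417 by limma), with knockout arrays below all wild-type arrays. Plin4 differed by −0.42 ± 0.16 and Plin3 by 0.09 ± 0.09, neither past the threshold. Brown adipocyte markers moved beside Plin5: 4 of 6 were lower and 0 higher (0 also at an unadjusted p under 0.05), and their mean was 8.28 to 9.66 on the wild-type arrays against 6.81 to 6.85 on the knockout ones. Their part in the fall of Plin5 was not tested.

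No butyrophilin relative passed. The 3 measured, Btnl10, Btnl2 and Btnl9, differed by −0.13 ± 0.09, −0.10 ± 0.08 and −0.22 ± 0.24 (0 higher and 0 lower at an unadjusted p under 0.05 in limma). For Xdh, 9 genes of related oxidases and of the molybdenum cofactor they carry were measured, and 2 were lower and 2 higher, with a median of 0.04. The aldehyde oxidases Aox1 and Aox3 fell by 0.93 ± 0.15 and 1.21 ± 0.21 (SE, adjusted p = 0.00984 and 0.0122 by limma). Mocs2, a gene of the cofactor's synthesis, rose by 0.50 ± 0.12 (adjusted p = 0.0301 by limma). Aox4 rose by 0.34 ± 0.09 (0.0471) from values of 2.85 to 3.02, within the range of the Y-linked sets. The rise of Mocs2 was not called when wild type 1, wild type 2, knockout 2 or knockout 3 was left out (adjusted p = 0.0800, 0.0666, 0.0609 and 0.0913), that of Aox4 not when any 1 of the 6 arrays was (0.0526 to 0.146), and the fall of Aox3 not when knockout 3 was (0.0503). Of 6 relatives and integrin receptors of Mfge8, 0 passed in either direction (0 also at an unadjusted p under 0.05 in limma). Factor VIII, F8, and the integrin gene Itgav had the smallest p, at 0.19 ± 0.09 and 0.21 ± 0.12.

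The list for fatty acid synthesis held more lower than higher genes. Among the 16 genes listed for fatty acid synthesis, 10 passed as lower and 0 as higher (13 and 0 at an unadjusted p under 0.05 in limma), with a median of −0.78. Acacb, an acetyl-CoA carboxylase, fell by 1.11 ± 0.15 (SE, adjusted p = 0.00507 by limma), Thrsp, a lipogenic regulator, by 0.66 ± 0.10 and Insig1, a brake on sterol-regulated transcription, by 1.12 ± 0.21. Aacs, which activates acetoacetate, was also lower, with a difference of −1.001 ± 0.14. Fasn, the synthase on which Olah acts, singled out for that reason, read 13.79, 13.97 and 13.88 against 13.57, 13.06 and 13.38, a fall of 0.54 ± 0.14 (adjusted p = 0.0398), a call kept only without knockout 1 among the fits that left out an array (the other 5 gave 0.0524 to 0.118). Knockout 2, the highest array for Olah, was the lowest for Fasn. Leaving out wild type 1, 2 or 3 gave 6, 4 and 4 lower genes, leaving out knockout 1, 2 or 3 gave 11, 7 and 3, and there were 5 with the skeletal muscle mean as a covariate.

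Triglyceride assembly and lipid uptake genes had 10 of 16 lower and 1 higher, with a median of −0.76. Slc27a1, a fatty acid transporter, fell by 0.94 ± 0.10 (SE, adjusted p = 0.00192 by limma), Gpd1, which makes glycerol phosphate, by 1.25 ± 0.15 and Dgat1, which completes triglycerides, by 0.73 ± 0.08. Mogat1, an acyltransferase, was also lower, with a difference of −1.499 ± 0.19. The brightest set of Dgat1 is marked as possibly shared between transcripts, and without such sets its adjusted p was 0.941. The gene that was higher was Acsl4, a ligase of arachidonic acid, which rose by 1.06 ± 0.15 (adjusted p = 0.00535). Beside both lists, 5 of 8 white adipocyte markers were lower and 0 higher (0 also at an unadjusted p under 0.05 in limma). Of these lower markers, Cidec, Lipe and Pnpla2 also belong to the globule or lipase lists and are counted as lower there. The part of fat cell content in the falls of both lists cannot be told apart from genotype, since the white adipocyte means do not overlap between groups. With that mean as a covariate 0 genes of either list passed in limma. At an unadjusted p under 0.05, 5 and 8 were lower and 0 and 1 higher.

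No lipase or esterase related to Cel by function passed as higher. Of 15 measured, 6 were lower and 0 higher (2 higher at an unadjusted p under 0.05 in limma), with a median of −0.11. Ces1f and Ces1d, carboxylesterases, fell by 1.15 ± 0.14 and 0.72 ± 0.12 (SE, adjusted p = 0.00384 and 0.0112 by limma), Mgll, which splits monoglycerides, by 0.84 ± 0.15 and Lipg, the endothelial lipase, by 1.25 ± 0.25. The pancreatic lipase relatives Pnliprp1 and Pnliprp2 lay between 3.30 and 3.65 on all arrays, within the range of the Y-linked sets. Mgll was not called when knockout 3 was left out (adjusted p = 0.0577) or when probe sets marked as shared between transcripts were (0.447). Without knockout 3, 3 of the 15 were lower, and without knockout 1, 3 were higher.

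**Figure D4:**
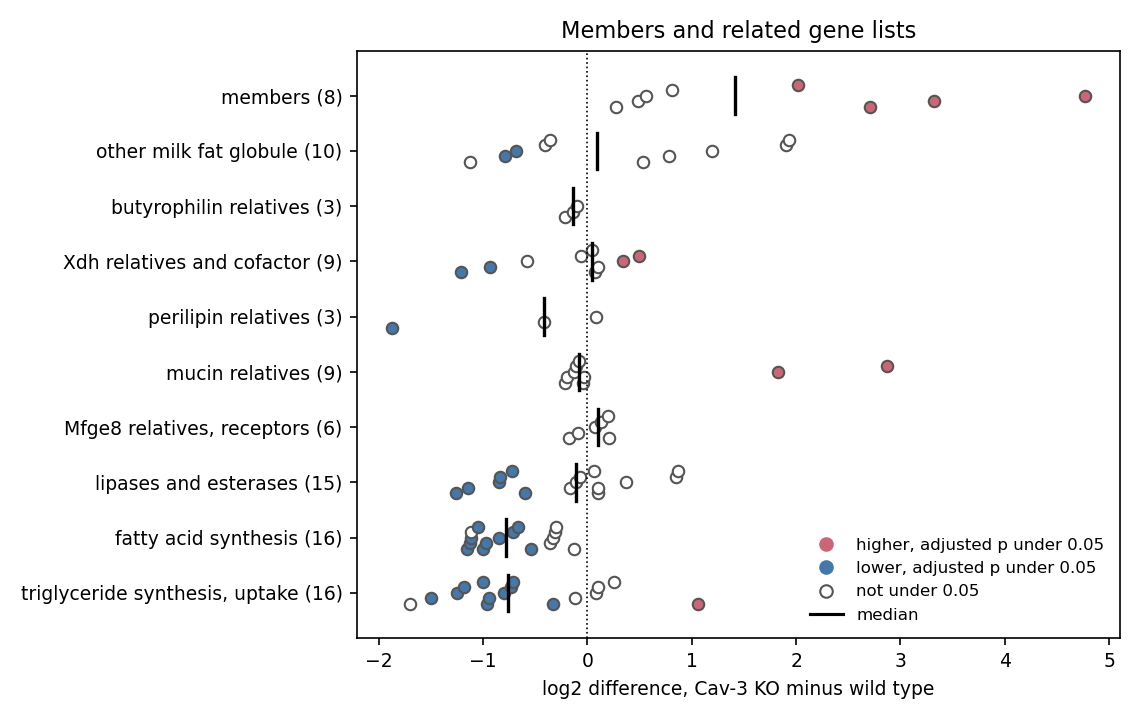
Log2 differences, Cav-3 knockout minus wild type, of the 8 genes (top line) and of the measured genes of 9 related lists (number in brackets); filled points had an adjusted p under 0.05 (red higher, blue lower), open points did not, and black bars are medians. The 8 genes all lie above 0, with a median of 1.41, while the fatty acid and triglyceride synthesis lists have medians of −0.78 and −0.76.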

How the data were processed

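RNA from 6 whole mammary gland samples was read on single-channel Affymetrix mouse arrays. The deposited values are log2 expression, 1 per probe set and array, and the submitters' processing notes name RMA as the authors' method; RMA subtracts background, normalizes arrays to one distribution and summarises probes, so it compresses dim folds and removes a shift common to most genes. The sources used here give neither its version nor a genome build.

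Of 45101 probe sets, 64 controls were left out and 45037 tested without a filter. The platform annotation gave 1 symbol to 34945 sets, several to 932 (not named) and none to 9160. Current symbols were taken by Entrez identifier from a RefSeq table of GRCm38.p6; 204 had no match. Groups come from the sample titles. The genotypes were tested against each other in limma 3.58.1 under R 4.3.3 (lmFit, eBayes, two-sided, genotype only), and p-values were adjusted by Benjamini-Hochberg over all tested sets at 0.05. On simulated data of 45037 probe sets it recovered 14% of 50 sets changed by 0.5, 72% of 50 changed by 1, 92% of 50 changed by 2 and 98% of 50 changed by 3 on the log2 scale, with 2 false calls. Only these sets were changed, while 5547 probe sets passed in the real data. The adjustment depends on that share, so the rates hold for the simulated setting and are not the sensitivity of this comparison.

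The 8 genes and all lists were chosen with earlier results of these data known. The 9 related lists and 12 marker lists name, per related list, at most 4 genes past the threshold with the smallest p, or the 2 with the smallest p where none passed. The alternatives, 20 settings in all, were 3 further normalizations, a filter on dim sets, array weights, a different prior for the variances, a replicate block, the omission of each array, other probe set choices, other thresholds and 3 marker list covariates. Of the marker lists, salivary gland had 1 of 10 higher (Car6), endothelium 1 of 7 higher and 2 lower, macrophages 1 of 8 lower, lymphocytes 3 of 4 lower, and fibroblasts 0 of 5 in either direction by limma (1 and 1 at an unadjusted p under 0.05); skeletal muscle had 0 of 10 (0 also unadjusted).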

Additional observations from a re-analysis of the deposited data

How the results depend on the processing

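With 3 arrays per group, small differences such as that of Plin2 are at the limit of what can be called. Under all 20 alternatives Olah, Cel, Muc1, Muc15, Plin2 and (in the 19 that measured it) Mfge8 kept a positive difference; with the white adipocyte mean as a covariate that of Btn1a1 was −0.76 and that of Xdh −0.056. Renormalization, the filter on dim sets, array weights, the mean of probe sets and the choice of probe sets kept 4 of the 8 genes past the threshold. Their number was 2 with a robust, intensity-dependent prior for the variances (Olah and Cel had adjusted p = 0.0557 and 0.141), 1 at a threshold of 0.01, and 0 with the luminal or the white adipocyte mean as a covariate, where 0 and 3 of all genes passed in limma (1514 and 1950 at an unadjusted p under 0.05; of the 8 genes, 5 and 1), since both means follow genotype. The median of the 8 genes was then 2.77 and 0.50. All genes past the threshold numbered 2941, with 867 at 0.01 and 4466 at 0.1. Of 87 measured genes of the related lists, 5 were higher and 31 lower; at 0.01, 2 and 14; with the luminal covariate, 0 and 0; with the white adipocyte covariate, 0 and 1 (16 and 21 in either direction at an unadjusted p under 0.05, respectively); with the skeletal muscle covariate, 3 were higher, and Cel had adjusted p = 0.0579. Leaving out 1 array gave 2 to 4 of the 8 genes, a median of 0.89 to 1.83, 1235 to 3181 genes, and 2 to 9 higher and 17 to 31 lower genes of the lists; the lowest counts came without wild type 3 for the 8 genes and without knockout 3 for all genes and the lists, the lowest median without knockout 2, and the 9 without knockout 1. Over all probe sets the replicate numbers gave little sign of pairing: same-numbered arrays had deviations from their group means that correlated at −0.05, 0.19 and −0.02, and 1 of 3 wild-type arrays was best matched by its own number. The fit with the replicate block called 4 of the 8 genes, 2870 of all genes, and 5 higher and 27 lower genes of the lists. Its SE was smaller for each of the 8 genes, at 0.31 for Olah and 0.43 for Cel (adjusted p = 0.00218 and 0.00890 by limma). For Muc15 the adjusted p was higher, at 0.00252. A pairing that touches these genes was therefore not excluded. Apart from the settings named, the cause of a change was not tested.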
